A study of Mus musculus with 4 samples.

Results

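The genes described here make up the MHC class I presentation machinery, which shows peptides from inside a cell to CD8 T cells. They were B2m, H2-K1, Tap1, Tap2, Tapbp, Psmb8, Psmb9, Psmb10, Erap1 and Nlrc5. Every probe set that carried exactly 1 of these symbols in the platform annotation was taken, which gave 11 probe sets for 10 genes, out of 39720 probe sets tested in the series. Tapbp had 2 probe sets and each other gene had 1. Another probe set was annotated to Tapbp together with a second gene and was left out.

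The samples were mouse Ly6C-high monocytes, sorted after the bone marrow of 3 mice had been pooled, then kept in GM-CSF plus interleukin 4 (both 20 ng per ml), cytokines that push monocytes toward dendritic cells. The retinoic acid group had all-trans retinoic acid at 100 nM from the start of culture, and the DMSO group had the solvent. Total RNA was taken after 24 h, and 2 arrays were read per group. Mouse strain and age are not given in the sources used here. The labels do not say whether the replicates came from separate cultures, so p-values cover the spread between these arrays alone, and that spread may be technical.

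MHC class I molecules consist of a heavy chain, here H2-K1, and the light chain beta-2 microglobulin from B2m. Proteasomes cut proteins into peptides, and the subunits Psmb8, Psmb9 and Psmb10 replace the standard catalytic subunits in the immunoproteasome. Tap1 and Tap2 form the pump that carries peptides into the endoplasmic reticulum, tapasin (Tapbp) holds the empty class I molecule at the pump, and the aminopeptidase Erap1 trims peptides there. Nlrc5 is the transcriptional activator of class I genes, a relative of Ciita, which activates class II genes. Dendritic cells use this pathway to prime CD8 T cells.

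Promoter windows are shown for the class I molecule itself and for the Tap1 and Psmb9 pair, whose genes lie head to head. They were taken from RefSeq, build GRCm38.p6, and run from 250 bases before the start site to 50 from it. Of the 10 genes, 8 matched a window. Capitals mark motifs found on either strand; no 2 of the marked motifs overlapped in these windows. The searched letters were AGGTCA (the half-site of retinoid and other nuclear receptors), GAANNGAAA (interferon response element), the NF-kappaB motif, TTCNNNGAA (gamma activated site), TGACG (core of the X2 element) and CCAAT (core of the Y box). X2 and Y elements belong to the promoter module through which Nlrc5 and Ciita act. The H2-K1 window is the first of 2 listed for that gene, at chr17:34000298-34000597 on the minus strand. The B2m window is at chr2:122147437-122147736 on the plus strand. The Tap1 window, at chr17:34187306-34187605 on the plus strand, also holds the Psmb9 start site, which is its base 25, while the Tap1 start site is its base 251.
H2-K1: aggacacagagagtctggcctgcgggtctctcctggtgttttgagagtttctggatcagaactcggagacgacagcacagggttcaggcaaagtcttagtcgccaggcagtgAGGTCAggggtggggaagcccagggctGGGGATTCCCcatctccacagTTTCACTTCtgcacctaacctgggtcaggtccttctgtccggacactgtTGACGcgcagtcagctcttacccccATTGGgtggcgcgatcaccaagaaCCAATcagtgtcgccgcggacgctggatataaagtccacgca
B2m: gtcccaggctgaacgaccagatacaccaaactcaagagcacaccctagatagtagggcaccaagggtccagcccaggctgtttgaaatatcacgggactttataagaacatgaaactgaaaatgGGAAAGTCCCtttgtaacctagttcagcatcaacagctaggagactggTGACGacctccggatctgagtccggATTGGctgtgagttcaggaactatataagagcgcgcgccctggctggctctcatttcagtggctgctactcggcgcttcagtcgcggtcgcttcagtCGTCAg
Tap1 and Psmb9: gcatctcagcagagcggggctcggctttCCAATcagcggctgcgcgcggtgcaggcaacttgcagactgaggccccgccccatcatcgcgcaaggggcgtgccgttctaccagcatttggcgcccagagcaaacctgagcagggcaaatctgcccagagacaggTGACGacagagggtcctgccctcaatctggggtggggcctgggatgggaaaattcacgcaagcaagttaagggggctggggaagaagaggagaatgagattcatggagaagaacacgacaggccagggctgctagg

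In the H2-K1 window the search found AGGTCA with its first base at -138, the NF-kappaB motif at -111, the interferon motif at -90, TGACG at -41 and CCAAT at -16 and 8, counted from the start site. AGGTCA is the core of region II of mouse class I promoters, the element with which a retinoid X receptor was first isolated as a class I binding protein. In the B2m window there were the NF-kappaB motif at -126, TGACG at -78 and 44 and CCAAT at -53. The Tap1 window held CCAAT at -222 and TGACG at -86, and 275 bases of it were shared with the Psmb9 window. Of the windows not shown, Psmb10 had AGGTCA at -42, Psmb8 the gamma activated site at -97 and Tapbp CCAAT at -248 and -165. Erap1 had none of the searched motifs. Among 32851 windows of the same length, AGGTCA was present in 16.3%, GAANNGAAA in 7.52%, the NF-kappaB motif in 4.79%, TTCNNNGAA in 8.30%, TGACG in 20.8% and CCAAT in 37.4%. These matches describe letters in the windows and not binding.

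Retinoic acid did not move any of the 11 probe sets past the threshold, a limma adjusted p under 0.05 over all 39720 probe sets. Adjusted p ran from 0.126 for Nlrc5 to 0.943 for B2m, and 2.09% of all probe sets passed, 0.904% as higher and 1.19% as lower. Nlrc5 and Tap1 had lower values with retinoic acid and Psmb10 and Erap1 had higher ones, each with an unadjusted limma p under 0.05. These were 4 of the 11 probe sets, against 13.4% of all probe sets. The groups did not overlap in 9 of the 11, against 44% of all: 6 were lower (23.3% of all) and 3 higher (20.7% of all). The median log2 difference, retinoic acid minus DMSO, was -0.13 over the 11, against -0.01 over all probe sets tested.

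The intervals bound the difference between these arrays alone, whose spread may be technical. They were not adjusted for the number of probe sets. In all 11 probe sets the 95% interval of the difference lay within 2-fold in either direction, as it did for 94.4% of all probe sets, and in 8 it lay within 1.5-fold, against 80.4% of all. The exceptions to the narrower bound were Nlrc5, Tap1 and Psmb10. All 11 had mean levels above 6.35 on the log2 scale, the 95th percentile of 1405 odorant and vomeronasal receptor probe sets, taken as a guide to dim signal. SDs between the 2 arrays of a group ran from 0.0011 to 0.22.

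The test decides on 2 of these genes by which probe sets enter it. When only the 23521 probe sets with 1 symbol were tested, Nlrc5 and Tap1 passed (limma adjusted p = 0.0271 and 0.0376), 2 of 11 where 6.96% of all passed and 3.74% passed as lower, and Psmb10 came to 0.0566. The fit used here leaves out 1625 unnamed probe sets that hold one identical value on all 4 arrays. With these kept, no probe set in the series passed.

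**Figure D1:**
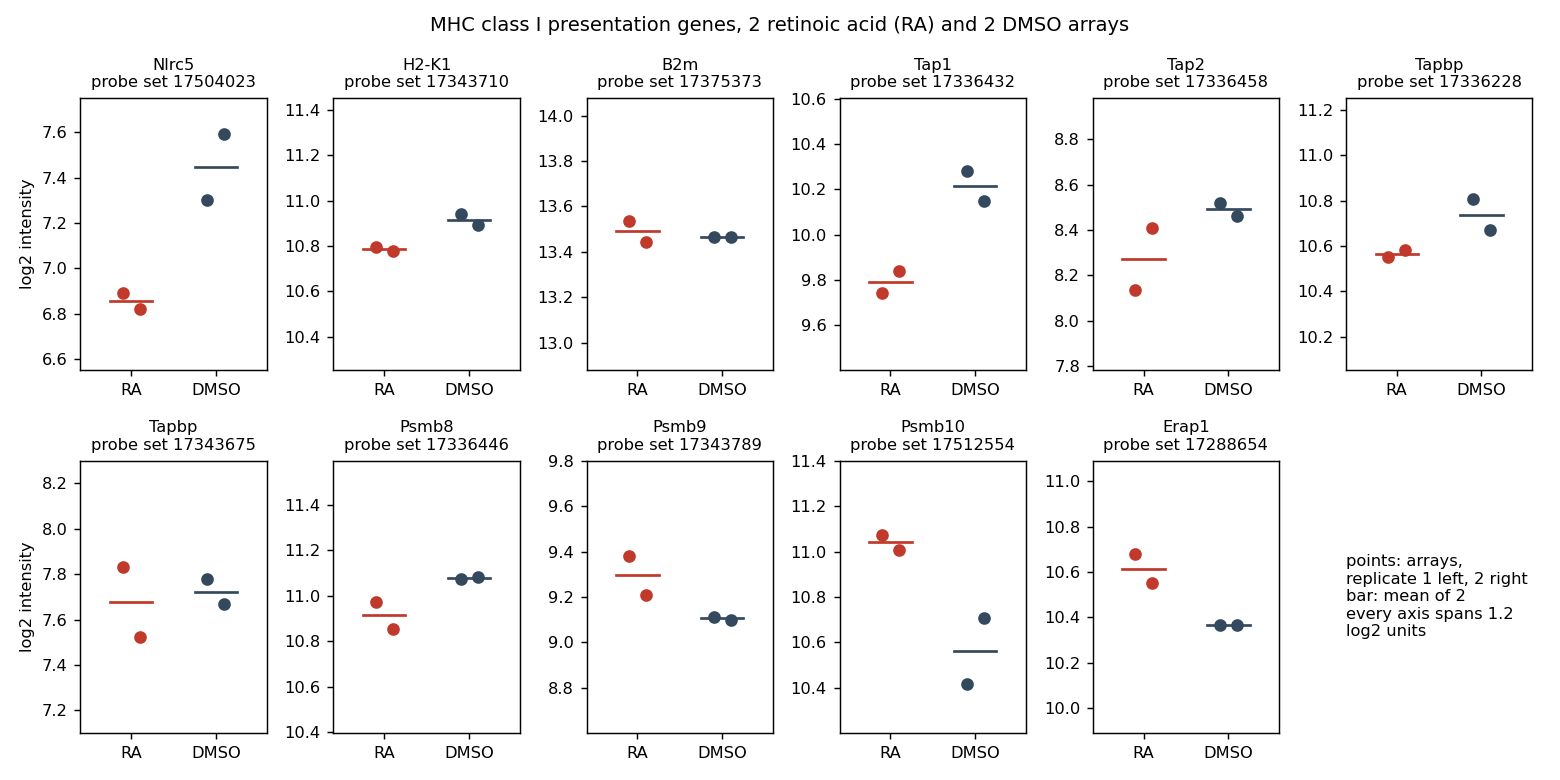
Log2 intensity (y axis) of each of the 11 probe sets on the 2 retinoic acid (RA) and 2 DMSO arrays (points; bars are means of 2), with every y axis spanning the same range. Nlrc5 and Tap1 lie lower and Psmb10 higher with retinoic acid, while B2m and Tapbp probe set 17343675 overlap between the groups.

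Nlrc5 (probe set 17504023), the class I activator, had log2 intensities of 6.89 and 6.82 with retinoic acid, against 7.30 and 7.59 with DMSO. Both retinoic acid arrays lay under both DMSO arrays, and the DMSO arrays lay further apart than the retinoic acid arrays. The difference was -0.59 ± 0.12 (limma log2 difference, SE), 1.5-fold lower, with a 95% interval of -0.91 to -0.27. It did not pass (adjusted p = 0.126). This was the largest absolute difference among the 11 probe sets.

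H2-K1 (probe set 17343710), a classical heavy chain, had 10.80 and 10.78 with retinoic acid and 10.94 and 10.89 with DMSO (log2 intensity). The groups did not overlap, yet the difference was only -0.13 ± 0.08 (SE), 1.09-fold lower, with an interval of -0.33 to 0.07 (limma adjusted p = 0.565). Heavy chain genes are similar in sequence, so probes of H2-K1 may also take up RNA of its relatives.

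B2m (probe set 17375373), the light chain shared by all class I molecules, had 13.53 and 13.45 with retinoic acid, against 13.47 and 13.47 with DMSO (log2 intensity). The DMSO arrays fell between the retinoic acid arrays. Its difference was 0.02 ± 0.08 (SE), with an interval of -0.19 to 0.23 (limma adjusted p = 0.943), so a change of 1.18-fold upward or 1.14-fold downward marks its edges.

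Tap1 (probe set 17336432), one chain of the peptide pump, had 9.74 and 9.84 with retinoic acid and 10.28 and 10.15 with DMSO (log2 intensity). The groups were clearly apart, by more than the spread inside either. The difference was -0.42 ± 0.09 (SE), 1.34-fold lower, with an interval of -0.66 to -0.18, and it did not pass (limma adjusted p = 0.137).

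Tap2 (probe set 17336458), the other chain of the pump, had 8.14 and 8.41 with retinoic acid, against 8.52 and 8.46 with DMSO (log2 intensity). Retinoic acid replicate 2 lay close to the DMSO arrays, and the difference was -0.22 ± 0.12 (SE; interval -0.52 to 0.08; limma adjusted p = 0.514). Leaving out retinoic acid replicate 1 gave -0.085, and leaving out its partner gave -0.36. Tapbp probe set 17336228, for tapasin, had 10.55 and 10.58 with retinoic acid and 10.81 and 10.67 with DMSO. Its difference was -0.17 ± 0.09 (SE; limma adjusted p = 0.498). Tapbp probe set 17343675, at 7.83 and 7.52 with retinoic acid and 7.78 and 7.67 with DMSO, overlapped between the groups and differed by -0.05 ± 0.13 (SE; limma adjusted p = 0.927). All probe sets of the pump and of tapasin had negative differences, and none passed. Only the Tap1 interval lay on the negative side throughout. Tapbp probe set 17343675 turned positive without retinoic acid replicate 2 or DMSO replicate 1.

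The immunoproteasome subunits had differences of both signs. Psmb8 (probe set 17336446) had log2 intensities of 10.97 and 10.85 with retinoic acid, against 11.07 and 11.08 with DMSO, a difference of -0.16 ± 0.08 (SE; limma adjusted p = 0.499). Psmb9 (probe set 17343789) had 9.38 and 9.21 with retinoic acid and 9.11 and 9.10 with DMSO, a difference of 0.19 ± 0.09 (SE; limma adjusted p = 0.488). In both genes the groups did not overlap, and the retinoic acid arrays were the more scattered pair. Without retinoic acid replicate 1, the Psmb9 difference was 0.10.

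Psmb10 (probe set 17512554) had 11.08 and 11.01 with retinoic acid, against 10.42 and 10.71 with DMSO (log2 intensity). Both retinoic acid arrays were above both DMSO arrays, which were the more scattered pair. The difference was 0.48 ± 0.12 (SE), 1.39-fold higher, with an interval of 0.16 to 0.80, and it did not pass (limma adjusted p = 0.190). Erap1 (probe set 17288654), the trimming peptidase, had 10.68 and 10.55 with retinoic acid and 10.37 and 10.37 with DMSO. It differed by 0.25 ± 0.09 (SE), 1.19-fold higher, with an interval of 0.02 to 0.47 (limma adjusted p = 0.322).

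**Figure D2:**
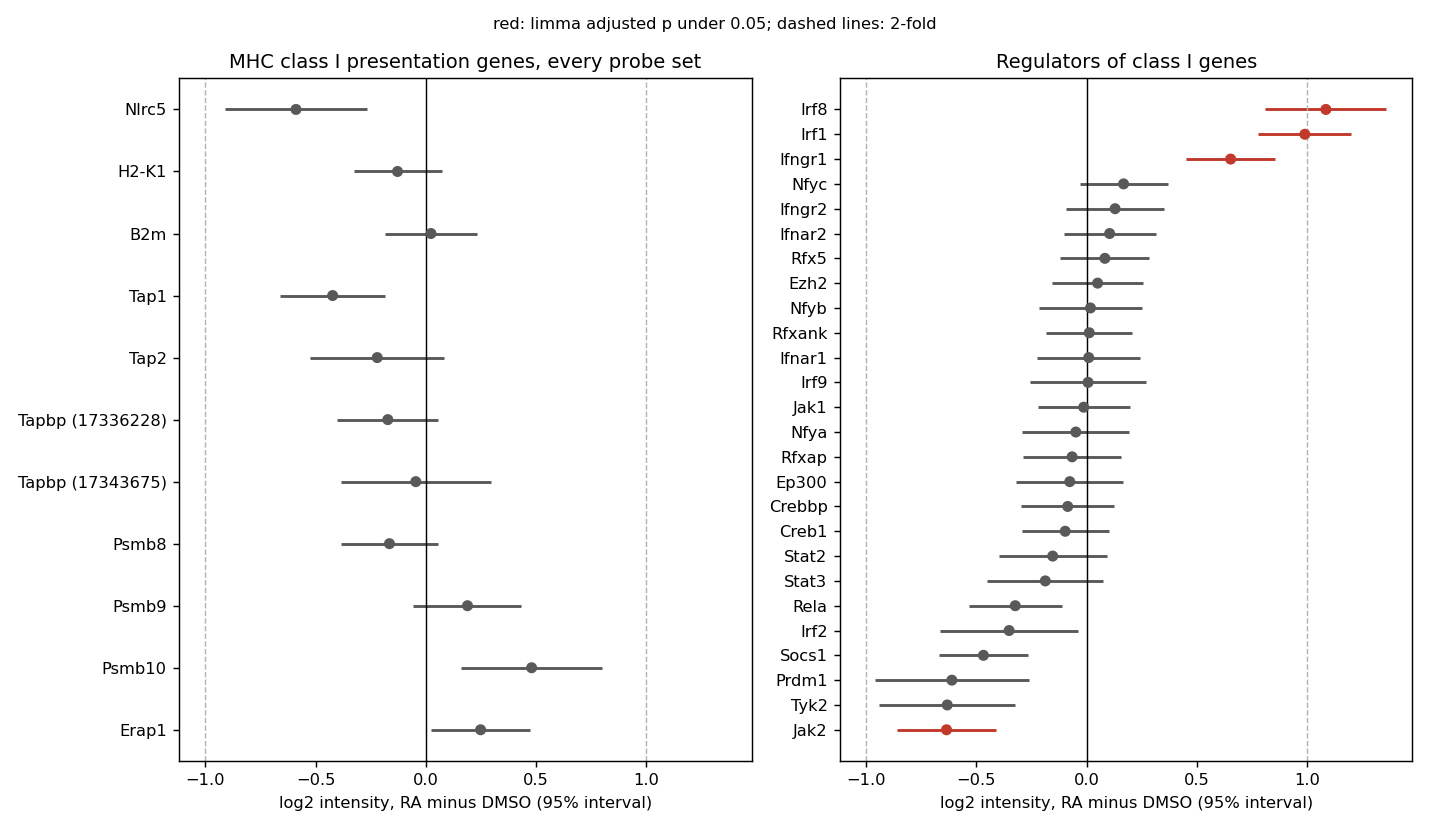
Log2 difference, retinoic acid (RA) minus DMSO, with its 95% limma interval, for the 11 class I presentation probe sets (left) and for 26 regulators of class I genes (right). Red marks a limma adjusted p under 0.05: Irf8, Irf1, Ifngr1 and Jak2 passed, and none of the 11 did. Dashed lines mark 2-fold: no class I interval reaches them, and neither do the intervals of Ifngr1 and Jak2.

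Genes of the surrounding pathway, each represented by its brightest probe set, were counted in lists; 3.07% of all 22180 named genes passed, 1.28% as higher and 1.79% as lower, and 15.1% had an unadjusted limma p under 0.05. Of 22 measured class I heavy chain genes, H2-K1 included, 0 passed and 3 had an unadjusted limma p under 0.05. Their median log2 difference was -0.03 (-0.09 among the 10 above the dim guide), against 0.01 over all genes. The 2 largest differences had opposite signs, and both genes were picked after their values were seen. H2-T10, a non-classical heavy chain whose mean level lay just under the dim guide, had log2 intensities of 6.62 and 6.74 with retinoic acid, against 6.14 and 5.81 with DMSO, a difference of 0.71 ± 0.14 (SE; limma adjusted p = 0.105). H2-M3, a non-classical heavy chain that presents formylated peptides, had log2 intensities of 8.78 and 8.73 with retinoic acid, against 9.26 and 9.36 with DMSO, a difference of -0.55 ± 0.08 (SE; limma adjusted p = 0.0599). H2-D1 and 9 other heavy chain genes had no probe set of their own by name and were not analysed here. Among 7 class I-like molecules 1 fell: Fcgrt, the neonatal Fc receptor, which pairs with beta-2 microglobulin and salvages antibody. It had log2 intensities of 9.83 and 9.72 with retinoic acid, against 10.92 and 11.04 with DMSO, a difference of -1.21 ± 0.09 (SE; limma adjusted p = 0.0121).

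The peptide loading and quality control list of the endoplasmic reticulum had 0 of 11 genes past the threshold (limma; 1 at an unadjusted p under 0.05), with differences from -0.14 to 0.40 and a median of -0.003. Its brightest gene, the chaperone Hsp90b1, differed by -0.07 ± 0.08 (SE). Neither the 3 standard catalytic subunits, 12 other core subunits, 10 activators and assembly factors nor 20 subunits of the 19S regulator held a gene that passed (limma; 0, 1, 2 and 0 at an unadjusted p under 0.05). Their medians were 0.02, 0.11, 0.12 and -0.02 on the log2 scale. The brightest genes of these lists differed by 0.02 ± 0.08 for Psmb7, 0.11 ± 0.08 for Psma3, 0.11 ± 0.09 for the assembly factor Pomp and -0.04 ± 0.09 for Psmd7 (SE). Among 9 peptidases that trim or destroy peptides, 0 passed (limma; 1 at an unadjusted p under 0.05), and the brightest, Nrd1, differed by -0.18 ± 0.09 (SE).

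**Figure D3:**
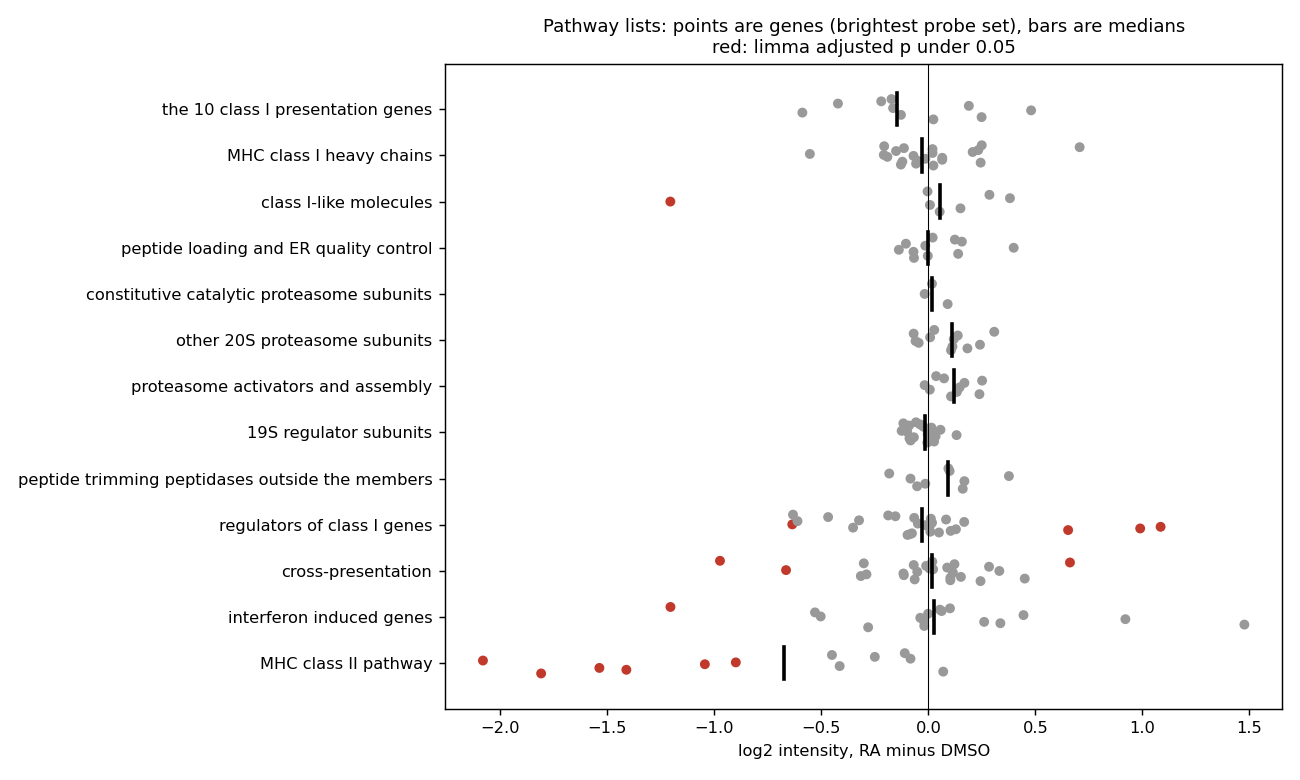
Log2 difference, retinoic acid (RA) minus DMSO, of each measured gene (points, 1 brightest probe set a gene; red, limma adjusted p under 0.05) in the class I presentation genes and 12 lists, with list medians as bars. The heavy chain, peptide loading, proteasome and peptidase lists hold no red point, and the class II list has its median at -0.68 with 6 of 12 genes called lower.

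Genes that control class I expression passed in both directions. Of 26 measured regulators, 3 rose, 1 fell and 22 did not pass; 9 had an unadjusted limma p under 0.05. Irf1, the interferon regulatory factor that binds class I, Tap1 and Psmb9 promoters, had log2 intensities of 9.20 and 9.18 with retinoic acid, against 8.25 and 8.15 with DMSO, a difference of 0.99 ± 0.08 (SE; limma adjusted p = 0.0140). Irf8, which helps to set the fate of myeloid cells, had 8.30 and 8.40 with retinoic acid, against 7.16 and 7.37 with DMSO, a difference of 1.09 ± 0.11 (SE; limma adjusted p = 0.0200). Both genes were higher on both retinoic acid arrays than on either DMSO array. A second Irf8 probe set (17548703), under the dim guide, differed by 0.13 ± 0.10 (SE; limma adjusted p = 0.658).

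Ifngr1, the ligand-binding chain of the interferon gamma receptor, rose by 0.65 ± 0.08 (log2, SE; limma adjusted p = 0.0327). Jak2, a kinase that signals from that receptor, fell by 0.64 ± 0.09 on the log2 scale (SE; limma adjusted p = 0.0448). Its log2 intensities were 12.09 and 11.97 with retinoic acid, against 12.65 and 12.68 with DMSO. The cofactors that Nlrc5 shares with Ciita gave small values: Rfx5 differed by 0.08 ± 0.08, Rfxap by -0.07 ± 0.09 and Rfxank by 0.01 ± 0.08 (SE), and none passed. They were named after their values were seen.

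Among 16 interferon induced genes, Usp18, a brake on interferon signalling, fell by 1.21 ± 0.12 on the log2 scale (SE; limma adjusted p = 0.0219) and 15 did not pass. The list median was 0.03, and 6 of the 16 had an unadjusted limma p under 0.05. The largest difference in this list was positive and did not pass: Gbp3, an interferon induced GTPase picked after its values were seen, had log2 intensities of 8.23 and 7.64 with retinoic acid, against 6.63 and 6.29 with DMSO, a difference of 1.48 ± 0.23 (SE; limma adjusted p = 0.0660). Igtp, another such GTPase picked the same way, differed by 0.92 ± 0.20 (SE; limma adjusted p = 0.134). Other genes of the list, also picked after their values were seen, had negative differences that did not pass. Irf7 differed by -0.50 ± 0.08 (SE; limma adjusted p = 0.0587). Mx1, whose mean level lay under the dim guide, differed by -0.53 ± 0.11 (SE; limma adjusted p = 0.118). Of 25 cross-presentation genes, which serve to route engulfed antigen onto class I, 1 rose and 2 fell, and 9 had an unadjusted limma p under 0.05. Wdfy4, needed in mouse for cross-presentation of cell-associated antigen, had log2 intensities of 10.79 and 10.92 with retinoic acid, against 11.80 and 11.86 with DMSO, a difference of -0.97 ± 0.09 (SE; limma adjusted p = 0.0178). Rab43, a vesicle GTPase with a part in cross-presentation by mouse dendritic cells, differed by -0.67 ± 0.08 (SE; limma adjusted p = 0.0351). Unc93b1, a carrier of endosomal toll-like receptors, rose by 0.66 ± 0.08 (SE; limma adjusted p = 0.0378), a call lost after quantile normalization (limma adjusted p = 0.0518). Beside the 10 class I presentation genes, 15 of 172 measured list genes passed on all 4 arrays, against 3.07% of all genes. The 172 include the 12 measured class II genes described next, which hold 6 of the 15. Whichever array was left out, none of the 15 turned its sign, and their calls rest on all 4 arrays.

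The MHC class II pathway shows peptides to CD4 T cells. Among its 12 measured genes 6 fell and none rose, and the median log2 difference was -0.68. The differences were -2.08 ± 0.10 for H2-Eb1 (SE; limma adjusted p = 0.0049), -1.81 ± 0.11 for Ciita (0.0073), -1.54 ± 0.08 for H2-Ab1 (0.0050) and -1.41 ± 0.08 for H2-Aa (0.0059). Ciita, the class II activator, had log2 intensities of 8.49 and 8.70 with retinoic acid, against 10.47 and 10.33 with DMSO. In bulk samples, fewer cells of a type and less RNA per cell cannot be told apart. Of 5 dendritic cell markers, Zbtb46 and Ccr7 fell (limma adjusted p = 0.0049 and 0.0175). Itgax and Flt3 had negative differences that did not pass, and Cd209a differed by 0.05 with overlapping groups. Mean log2 levels over the 5 were 8.55 and 8.50 with retinoic acid, against 9.16 and 9.13 with DMSO. Over 7 monocyte markers the means were 12.01 and 11.96 with retinoic acid, against 11.77 and 11.86 with DMSO; 4 of the 7 had higher and 3 lower values, and none passed. The part of these markers in the results was not tested.

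For 4 pairs, the class I gene was set against its counterpart on the same array. The counterparts were the standard subunit in the same place of the proteasome and, for Nlrc5, its class II relative Ciita. Only the shift between groups carries meaning, since levels of 2 probe sets cannot be compared. With retinoic acid, Nlrc5 minus Ciita was -1.59 and -1.88, against -3.17 and -2.74 with DMSO. The shift was 1.22, from differences of -0.59 in Nlrc5 and -1.81 in Ciita. Psmb10 minus Psmb7 was -0.50 and -0.51 with retinoic acid and -1.13 and -0.81 with DMSO, a shift of 0.46. Psmb9 minus Psmb6 shifted by 0.21 and Psmb8 minus Psmb5 by -0.26. The groups did not overlap in any of the 4 pairs, while 44% of all single probe sets did not overlap either. An exact permutation test of 2 arrays against 2, two-sided, gave p = 0.333 for each, and 0.333 after adjustment over the 4. That is the smallest p it can give, and any pair without overlap gets it, so the test cannot decide here.

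**Figure D4:**
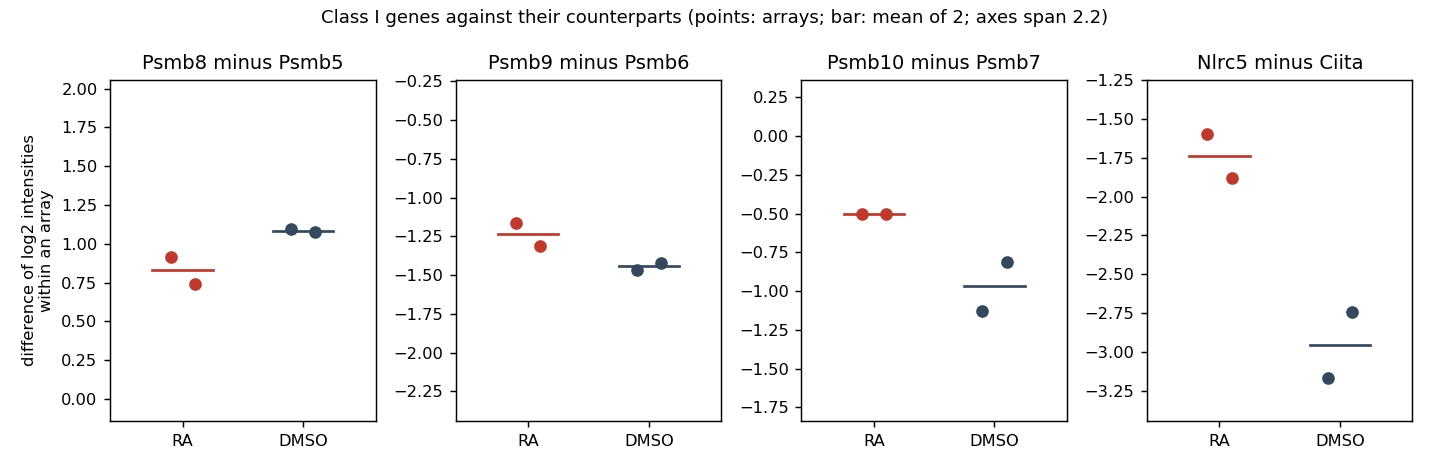
Difference of log2 intensities within an array (y axis) between a class I gene and its counterpart, on 2 retinoic acid (RA) and 2 DMSO arrays (points; bars are means of 2; all y axes span the same range). Nlrc5 minus Ciita shifts by 1.22 and Psmb10 minus Psmb7 by 0.46, while the other proteasome pairs shift by 0.21 and -0.26.

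Psmb9, Tap1, Psmb8 and Tap2 follow each other on chromosome 17, between class II genes. In RefSeq gene order, H2-DMa, H2-DMb2 and H2-DMb1 come before them and H2-Ob, H2-Ab1, H2-Aa, H2-Eb1 and H2-Eb2 after; this set of neighbours was chosen after values had been seen. On one side H2-DMb1 had log2 intensities of 7.20 and 7.20 with retinoic acid, against 8.29 and 8.20 with DMSO (limma adjusted p = 0.0126). On the other side H2-Ob had 7.12 and 7.18 with retinoic acid, against 7.65 and 7.56 with DMSO and did not pass (limma adjusted p = 0.0936). None of the 4 class I genes between them passed, and 5 of the 8 class II neighbours did, against 3.07% of all genes. All 8 neighbours belong to the class II list above, so these 5 calls were already counted there. Tap1 differed by -0.42, H2-DMa by -0.41 and H2-Ob by -0.45 on the log2 scale, and none of these passed. H2-Eb2 differed by -0.08 and did not pass either.

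Tap1 and Psmb9 share the window printed above, with 225 bases between their start sites. Their differences had opposite signs, but neither passed, and the Psmb9 interval of -0.06 to 0.43 spans both signs. On the same array, Tap1 minus Psmb9 was 0.36 and 0.63 with retinoic acid, against 1.17 and 1.05 with DMSO, a shift of -0.61. The pair was chosen for this contrast, so no test is given.

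**Figure D5:**
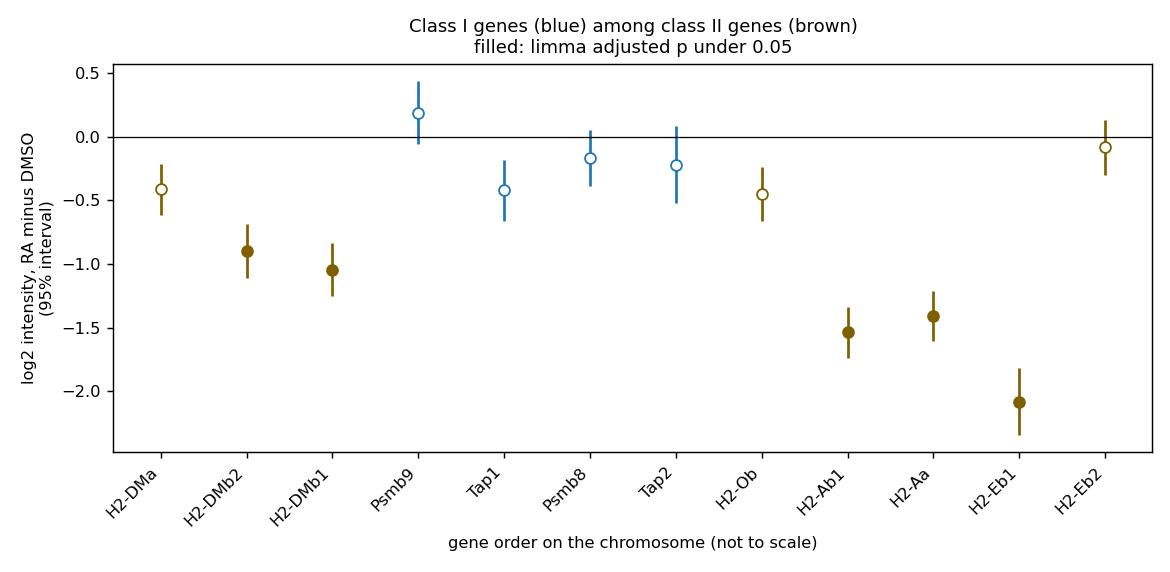
Log2 difference, retinoic acid (RA) minus DMSO, with 95% limma intervals, for 12 genes in their order on chromosome 17 (not to scale); class I genes in blue, class II genes in brown, filled where the limma adjusted p was under 0.05. The 4 class I genes are unfilled, from -0.42 for Tap1 to 0.19 for Psmb9, as are H2-DMa, H2-Ob and H2-Eb2. H2-Eb1 on one flank is at -2.08.

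As a check of the labelled cells, all 7 monocyte markers and all 5 dendritic cell markers lay above the dim guide. So did 7 of 8 neutrophil and 6 of 6 myeloid progenitor markers. Of the 8 neutrophil markers 5 had lower and 3 higher values with retinoic acid, with a median log2 difference of -0.07, and the progenitor means overlapped between the groups. Of the B cell, T cell and NK cell markers, 1 of 5, 2 of 5 and 0 of 5 were above it. In each of 3 lists of other lineages 1 marker rose and the others did not pass. These were Cd79b among 5 B cell markers (limma adjusted p = 0.0471), Siglecf among 7 eosinophil, basophil or mast cell markers (0.0488) and Retnlg, whose mean level lay under the dim guide, among the neutrophil markers (0.0227). The list medians were 0.19 for B cells and 0.03 for eosinophils, basophils and mast cells, and the part of these markers in the results was not tested. Array medians lay between 80.01 and 81.8 on the linear scale. Over all probe sets, arrays of the same treatment correlated at 0.993 to 0.994 and arrays of different treatments at 0.984 to 0.988.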

How the data were processed

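The deposited table holds linear intensity values, 1 for each probe set on each array, made with Affymetrix Expression Console and RMA per the submitters' processing notes; versions and genome build are not given in the sources used here. RMA corrects background and equalises arrays, which understates differences of dim probe sets. Per the labels' protocols, cDNA was made from 250 ng of RNA. Intensities were turned to log2 and not normalized again. Of 41345 probe sets, 1625 with one identical value on all arrays (1624 of them at 4.78) were left out. Names came from the platform annotation: 23521 probe sets had 1 symbol, 1814 several and 16010 none. All 10 genes matched RefSeq by gene identifier.

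Groups were compared with limma 3.58.1 in R 4.3.3 (lmFit, eBayes, two-sided, no covariate, 2 residual degrees of freedom), adjusted by Benjamini-Hochberg over all tested probe sets, with an adjusted p under 0.05 as the threshold. The procedure was tested on simulated data. The genes, lists and tests were chosen with earlier results of these data known. From each list, up to 4 genes past the threshold with the largest difference were named, or the brightest gene where none passed. Alternatives were the set of probe sets tested, a dim filter, quantile normalization, an offset, an intensity trend, replicate blocks and leaving out each array. The number of arrays limits the precision.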

Additional observations from a re-analysis of the deposited data

How the results depend on the processing

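Under the 8 alternatives that kept all 4 arrays, every one of the 11 class I presentation probe sets kept the sign of its difference, and only Nlrc5 and Tap1 passed in any, both when probe sets with 1 symbol alone were tested. Over all 12 alternatives the adjusted p ran from 0.0271 to 0.406 for Nlrc5, from 0.0376 to 0.416 for Tap1 and from 0.0566 to 0.428 for Psmb10. Without 1 array, B2m ran from -0.021 (without retinoic acid replicate 1) to 0.068, Tapbp probe set 17343675 from -0.20 to 0.11 (positive without retinoic acid replicate 2 or DMSO replicate 1), and no other probe set of the 11 changed sign. Single arrays moved 4 others by over 1.5 times: Tap2 was -0.085 without retinoic acid replicate 1 and -0.36 without replicate 2, Psmb9 was 0.10 without retinoic acid replicate 1, Psmb8 was -0.11 without retinoic acid replicate 2, and Tapbp probe set 17336228 was -0.10 without DMSO replicate 1.

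With the 1625 constant probe sets kept, limma called 0 probe sets of the series against 831, and 0 list genes outside the 10 against 15, 0 class II genes against 6 and 0 class I regulators against 4. With only 1-symbol probe sets the counts were 1636, 27 list genes, 8 class II genes and 7 regulators, with 2 of the 11 class I probe sets. With the replicate block they were 161 probe sets, 3 list genes, 3 class II genes and 0 regulators, and 0 of the 11. Same-numbered arrays deviated in opposite directions (correlation -0.25), and nothing in the labels pairs them. A crossed replicate block, chosen after the data were seen, gave 457 probe sets, 8 list genes, 6 class II genes and 1 regulator. Fewer residual degrees of freedom belong to both blocks by construction. Without 1 array, between 25 and 55 probe sets passed (25 without retinoic acid replicate 1, 55 without replicate 2, 41 without either DMSO array), with 0 list genes, 0 class II genes, 0 regulators and 0 of the 11 in each. With quantile normalization 14 list genes passed, Unc93b1 being lost. The shifts of the 4 counterpart pairs kept their signs. Nlrc5, with a mean log2 intensity of 7.15 against the dim guide of 6.35, lay closest to background among the 11.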
